A study of Mus musculus with 8 samples.

Results

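Eosinophils, basophils and mast cells are granulocytes of allergy and of defence against parasites. Eosinophils store basic proteins, a peroxidase and ribonucleases in their granules and depend on interleukin-5. Basophils and mast cells carry the high-affinity IgE receptor, store histamine and release proteases and carboxypeptidase when the receptor is crosslinked. Eosinophils and basophils mature in the bone marrow beside neutrophils, whereas mast cells complete their maturation in tissues. The RNA of isolated neutrophils was examined here for 10 genes that mark these cells: Prg2, Epx, Ear1, Ear2, Mcpt8, Cpa3, Fcer1a, Ms4a2, Prss34 and Il5ra. They were chosen by symbol, and all 10 were among the 24421 genes of the count table.

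Neutrophils were isolated magnetically from the bone marrow of 8-week-old female C57BL/6 mice, either wild type (WT) or Padi4-knockout (KO), which lack exon 1 of Padi4, the gene of the citrullinating enzyme PAD4. The cells were left unstimulated or received the TLR7 agonist R848 at 1 µg/ml for 6 h, which made 4 groups of 2 libraries: unstimulated WT, WT after R848, unstimulated KO and KO after R848. The titles of the unstimulated libraries give 0 h, whereas the treatment protocol gives the same 6 h for both arms, so that each R848 response may also hold the effect of culture. Each sample was analysed in duplicate according to the study's methods, and the labels do not say whether the duplicates came from separate mice, so the p-values measure only the spread between these libraries, which may be technical.

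The libraries were shallow, with 562446 to 1177972 reads counted on genes, and 3 reads corresponded to 2.55 to 5.33 CPM, which are read counts scaled to a common library size. Padi4 had 590 and 527 reads in unstimulated WT, 166 and 234 in WT after R848, 40 and 54 in unstimulated KO, and 34 and 21 in KO after R848, so every library matched its genotype label. The 10 measured neutrophil markers, such as S100a8, S100a9 and Camp, summed to between 100359 and 154567 CPM per library. The markers of other cells differed with the genotype: 8 erythroid genes summed to 10.5 to 62.4 CPM in the WT libraries and to 593 to 862 CPM in the KO libraries, and 8 monocyte genes to 1362 to 1997 CPM and 1973 to 3158 CPM. None of the erythroid or monocyte genes was at 0 in all libraries. The 2 libraries of WT after R848 differed from each other by more than those of the other groups, with a chi-square over degrees of freedom of 1.668 against 1.055 to 1.162.

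The 10 genes were near the limit of detection. Summed over all 10, they had 41 and 22 reads in unstimulated WT, 19 and 22 in WT after R848, 26 and 38 in unstimulated KO, and 35 and 24 in KO after R848. As CPM of the library totals, these sums were 64.0 and 39.1, 31.1 and 32.9, 36.3 and 34.5, and 29.7 and 21.2, in the same order of groups. Replicate 1 of unstimulated WT held the highest sum, at 63.4 CPM also with the TMM factors of the tests. Replicate 2 of that group lay above the other 6 by library totals, but with TMM factors it stood at 38.0 CPM, below both WT libraries after R848 (38.7 and 38.9). Of the 10 genes, 8 had at least 1 read in 2 or more libraries and entered the tests, whereas Ear2 and Il5ra had none in any library. In bulk RNA of this kind, fewer cells of a type and less RNA per cell cannot be told apart.

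**Figure D1:**
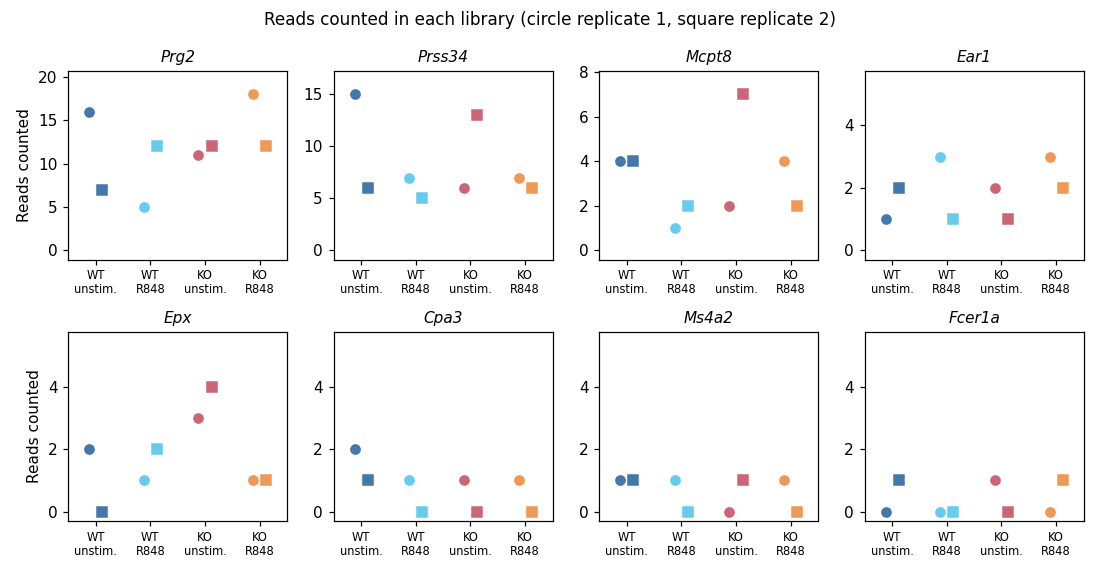
Reads counted on each of the 8 detected genes (vertical axes, raw counts) in each group (horizontal axes), with a circle for replicate 1 and a square for replicate 2. Prg2 and Prss34 held the most reads, with 93 and 65 over all libraries, and Cpa3, Ms4a2 and Fcer1a never exceeded 2 reads in a library.

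The eosinophil granule genes were represented mainly by Prg2, which encodes the major basic protein (chromosome 2, 84980461 to 84983632 of GRCm38, 6 exons). Prg2 had 16 and 7 reads in unstimulated WT, 5 and 12 in WT after R848, 11 and 12 in unstimulated KO, and 18 and 12 in KO after R848. Its pooled level on library totals was 19.1 CPM in unstimulated WT (95% exact Poisson interval 12.1 to 28.7, which covers counting error only). In the other 3 groups it was between 12.6 and 13.3 CPM. With TMM factors, the means were 18.4 CPM in unstimulated WT, 15.7 in WT after R848, 10.6 in unstimulated KO and 13.5 in KO after R848. The other 3 groups were thus level only on library totals. As CPM, the 2 unstimulated WT libraries overlapped with those of unstimulated KO. Epx, the eosinophil peroxidase gene (chromosome 11, 87864000 to 87875536, 13 exons), had 2 and 0, 1 and 2, 3 and 4, and 1 and 1 reads in the same order of groups. Epx was thus at 0 in 1 unstimulated WT library and highest in unstimulated KO, with intervals that overlapped between all groups (0.201 to 6.00 CPM in unstimulated WT and 1.55 to 7.93 CPM in unstimulated KO).

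The Ear genes encode eosinophil-associated ribonucleases and form a cluster of near-identical copies on chromosome 14. Ear1 (43818765 to 43875517) had 1 and 2, 3 and 1, 2 and 1, and 3 and 2 reads, and no group stood apart. Ear2 (44102654 to 44103534) had 0 reads in all 8 libraries. This allows up to 1.30 to 2.49 CPM per group of reads that fit Ear2 alone, so its full level may be higher. The annotated coding sequences of the pair, of 465 and 468 bp, were identical at 445 of 468 aligned positions (95.1%). The start of both coding sequences and the gap-free stretch with the most differences, bases 96 to 155, are shown because a read can be assigned only where they differ. Capitals mark the bases that differ.
Ear1, bases 1 to 60: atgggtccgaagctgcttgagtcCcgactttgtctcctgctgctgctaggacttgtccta
Ear2, bases 1 to 60: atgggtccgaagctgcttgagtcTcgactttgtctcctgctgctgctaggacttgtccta
Ear1, bases 96 to 155: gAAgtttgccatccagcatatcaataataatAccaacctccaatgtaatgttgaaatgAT
Ear2, bases 96 to 155: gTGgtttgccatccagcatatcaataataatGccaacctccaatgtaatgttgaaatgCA
Over the Ear1 transcript, 57.4% of all 50-base windows also occurred in transcripts of other genes (Ear2, Ear6, Ear10 and 2 pseudogenes), and over Ear2 41.5%, against 0% for Prg2, Epx, Mcpt8, Cpa3, Fcer1a and Prss34. The deposited table listed 0 reads as not uniquely aligned, so reads that fit several copies are not in it, and the division of reads between Ear1 and Ear2 is uncertain. Of the 9 Ear genes in the table, 8, all but Ear1, were at 0 in every library.

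The receptor of interleukin-5 was not detected. Il5ra (chromosome 6, 106710357 to 106749037, 13 exons), the alpha chain of the interleukin-5 receptor, had 0 reads in all 8 libraries. This allows a level of up to 1.30 to 2.49 CPM per group. Csf2rb, the signalling chain that this receptor shares with those of interleukin-3 and GM-CSF and that neutrophils also express, had 280 and 232, 247 and 305, 412 and 634, and 616 and 622 reads, and was named after its values were seen. Per kilobase of exon and over all libraries, Csf2rb stood at 96.8 CPM and Prg2 at 16.8 CPM.

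The basophil proteases were the other detectable group. Prss34, which encodes the basophil serine protease mMCP-11 (chromosome 17, 25298394 to 25300165, 5 exons), had 15 and 6 reads in unstimulated WT, 7 and 5 in WT after R848, 6 and 13 in unstimulated KO, and 7 and 6 in KO after R848. Its pooled level was 17.5 CPM (10.8 to 26.7) in unstimulated WT, 9.38 CPM (4.85 to 16.4) in WT after R848, 10.4 CPM (6.29 to 16.3) in unstimulated KO and 5.62 CPM (2.99 to 9.61) in KO after R848. The interval of KO after R848 lay below that of unstimulated WT, but the intervals hold counting error only and no test compared that pair of groups. Replicate 1 of unstimulated WT again held the most reads, with 15 against 6 in replicate 2. With TMM factors, the means were 16.8, 11.6, 8.11 and 5.87 CPM in the same order of groups. Mcpt8, the gene of the basophil protease mMCP-8 (chromosome 14, 56082166 to 56085273, 5 exons), had 4 and 4, 1 and 2, 2 and 7, and 4 and 2 reads in the same order of groups. Per kilobase of exon, the level over all libraries was 8.06 CPM for Prss34, 4.70 CPM for Mcpt8, 3.11 CPM for Ear1 and 0.787 CPM for Epx.

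Cpa3, Ms4a2 and Fcer1a were at the limit of detection. Cpa3, mast cell carboxypeptidase A (chromosome 3, 20215620 to 20242181), had 2 and 1 reads in unstimulated WT and 1 and 0 in each of the other groups. Ms4a2, the beta chain of the IgE receptor (chromosome 19, 11615523 to 11623719), had 1 and 1, 1 and 0, 0 and 1, and 1 and 0 reads. Fcer1a, the chain that binds IgE (chromosome 1, 173221284 to 173227214), had 3 reads in all. No fold change is given for these or for Ear1 and Epx, whose mean was under 3 reads per library.

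The defining markers of mast cells were not detected at this depth. Of 11 mast cell markers, 9 were at 0 in all libraries, namely the proteases Cma1, Mcpt1, Mcpt2, Mcpt4, Tpsab1, Tpsb2 and Tpsg1 and the receptors Mrgprb1 and Mrgprb2. The other two, Kit and Mitf, are also used by early progenitors and by other myeloid cells. Of 8 basophil markers, Il4, Il13 and Cyp11a1 were at 0, and of 7 eosinophil markers Il5ra was.

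Promoter sequences of RefSeq (GRCm38.p6), 250 bases before to 50 after the start, were found for 9 of the 10 genes, all but Prg2. They were searched on both strands for AGATAA and AGATAG as well as TGATAA and TGATAG, forms of the element read by GATA factors, which act in the lineages of all 3 cell types. At least 1 stood in 5 of the 9, namely Cpa3, Fcer1a, Ms4a2, Prss34 and Il5ra, and in 9778 of 32851 promoters of the table (29.8%). The matches in the 5 genes were all AGATAA and did not overlap. The promoters of Prss34, the best detected of the 5, and of Ms4a2, with 3 matches, are printed with the matches in capitals (TTATCT is AGATAA read on the other strand).
Prss34, chr17:25298144-25298443, plus strand: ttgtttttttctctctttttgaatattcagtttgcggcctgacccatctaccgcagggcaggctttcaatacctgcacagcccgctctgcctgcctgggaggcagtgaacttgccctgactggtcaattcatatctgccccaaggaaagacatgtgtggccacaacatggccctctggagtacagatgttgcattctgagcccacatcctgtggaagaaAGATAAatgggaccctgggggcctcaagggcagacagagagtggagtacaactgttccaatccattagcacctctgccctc
Ms4a2, chr19:11623670-11623969, minus strand: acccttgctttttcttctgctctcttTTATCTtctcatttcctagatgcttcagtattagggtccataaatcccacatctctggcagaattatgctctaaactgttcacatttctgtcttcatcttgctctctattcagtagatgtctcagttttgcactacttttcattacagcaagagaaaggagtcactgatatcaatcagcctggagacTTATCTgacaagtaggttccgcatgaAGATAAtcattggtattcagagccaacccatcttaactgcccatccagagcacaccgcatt
The match in Prss34 began 31 bases before the start, and those in Ms4a2 224, 37 and 11 bases before it. A match of letters is not a binding site, and genes with and without one were both among those near 0 reads.

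Whether R848 changed the genes was tested in each genotype with edgeR's quasi-likelihood test, and the p-values were adjusted by Benjamini-Hochberg over 12254 genes. A call needed an adjusted p below 0.1 and more than 2-fold change. In WT, 0 of the 8 tested genes were called, against 18% of all genes tested and 9.17% of those with a mean of under 10 reads. No gene of the 8 had an unadjusted p below 0.05, against 33.1% of all genes. DESeq2 called 0, but gave an adjusted p to only 3 of the 8. The log2 fold change was -0.22 (SE 0.47, 95% interval -1.15 to 0.71) for Prg2. It was -0.58 (SE 0.54, -1.64 to 0.47) for Prss34. For Mcpt8, it was -1.16 (SE 1.00, -3.12 to 0.80). All 3 intervals held both 0 and a fall of more than 2-fold, so a fall of that size cannot be told from no change here. The estimates were above 0 for 2 genes and below 0 for 6, with a median of -0.64 against -0.17 over all genes. Without Fcer1a, which had 0 reads in WT after R848, the median was -0.58. Here and in the comparisons below, the signs of Ear1, Epx, Cpa3, Ms4a2 and Fcer1a rest on few reads.

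In KO, 0 of the 8 were called in response to R848, against 16.9% of all genes and 14.1% of those under 10 reads. By edgeR, 0 had an unadjusted p below 0.05, against 37.3% of all genes, and DESeq2 called 0 of the 3 genes to which it gave an adjusted p. Prg2 had a log2 fold change of 0.41 (SE 0.41, -0.40 to 1.21), Prss34 of -0.50 (SE 0.53, -1.55 to 0.54) and Mcpt8 of -0.53 (SE 0.80, -2.10 to 1.05). The estimates were above 0 for 5 genes and below 0 for 3, with a median of 0.024 against -0.031 over all genes. The responses of KO and WT were also compared with each other: 0 of the 8 differed (4.71% of all genes and 0.412% of those under 10 reads were called), and 0 had an unadjusted p below 0.05, against 13.4% of all genes. DESeq2 gave no adjusted p to any of the 8 in this comparison. The difference, KO minus WT on the log2 scale, was 0.63 (SE 0.63, -0.60 to 1.86) for Prg2, 0.080 (SE 0.82, -1.54 to 1.70) for Prss34 and 0.63 (SE 1.33, -1.98 to 3.24) for Mcpt8. These intervals are wide enough to hold a difference of more than 2-fold for all 3 genes.

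Unstimulated KO was compared with unstimulated WT, where a gene was called at an adjusted p below 0.1. The levels, scaled by TMM, were 18.4 ± 8.94 CPM (SD, n = 2) in WT and 10.6 ± 2.64 CPM in KO for Prg2, and 16.8 ± 9.07 and 8.11 ± 1.87 CPM for Prss34. The log2 fold change was -0.87 (SE 0.44, -1.74 to -0.0051) for Prg2 and -1.02 (SE 0.48, -1.96 to -0.074) for Prss34, with adjusted p of 0.167 and 0.130 by edgeR. Neither was called, and the 2 WT libraries differed by more than the means of the groups did. In all, 0 of the 8 genes were called, against 23.9% of all genes and 7.47% of those under 10 reads. Prg2 and Prss34 had an unadjusted p below 0.05 (edgeR's model p of 0.0487 and 0.0346), as did 29.5% of all genes. With DESeq2, 0 of the 8 had an unadjusted p below 0.05, and only 2 were given an adjusted p.

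This comparison rested on 1 library. Without replicate 2 of unstimulated WT, the library with fewer reads of both genes, 2 were called, Prg2 with a log2 fold change of -1.27 and Prss34 with -1.45. Without replicate 1 of that group, the changes were -0.24 and -0.30. The estimates were below 0 for 7 of the 8 genes and above 0 for 1, with a median of -0.84 against -0.034 over all genes. Of the 8, Ear1, Epx, Cpa3, Ms4a2 and Fcer1a had means of under 3 reads per library, so their signs rest on few reads. Among the other lists, 7 of 8 erythroid genes were higher in unstimulated KO, from 53.3 to 62.4 CPM summed in WT to 593 to 616 CPM, and 5 of 8 monocyte genes were higher and 1 lower. All 4 early neutrophil genes (Elane, Mpo, Prtn3 and Ctsg) were lower, from 1181 to 1234 CPM to 877 to 884 CPM, and 9 of 10 neutrophil genes were lower. Of all genes, 9.55% were called higher and 14.4% lower here. The part of these cells in the levels of the eosinophil and basophil genes was not tested.

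After R848, 0 of the 8 genes differed between KO and WT, against 17.3% of all genes and 5.56% of those under 10 reads, with 0 at an unadjusted p below 0.05 (23.5% of all genes). DESeq2 called 0, but gave an adjusted p to only 2 of the 8. Prg2 had a log2 fold change of -0.25 (SE 0.46, -1.14 to 0.65), Prss34 of -0.94 (SE 0.61, -2.12 to 0.25) and Mcpt8 of -0.065 (SE 1.08, -2.18 to 2.05). Prss34 stood at 11.6 ± 3.83 CPM in WT and 5.87 ± 0.50 CPM in KO, where the 2 libraries of KO lay below both of WT. The estimates of 7 of the 8 genes were below 0, with a median of -0.79 against 0.083 over all genes (-0.87 without Fcer1a). The signs of Ear1, Epx, Cpa3, Ms4a2 and Fcer1a again rest on few reads. All 8 erythroid genes were higher in these KO libraries, and 8 of 10 neutrophil genes were lower, against 9.46% and 7.81% of all genes.

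**Figure D2:**
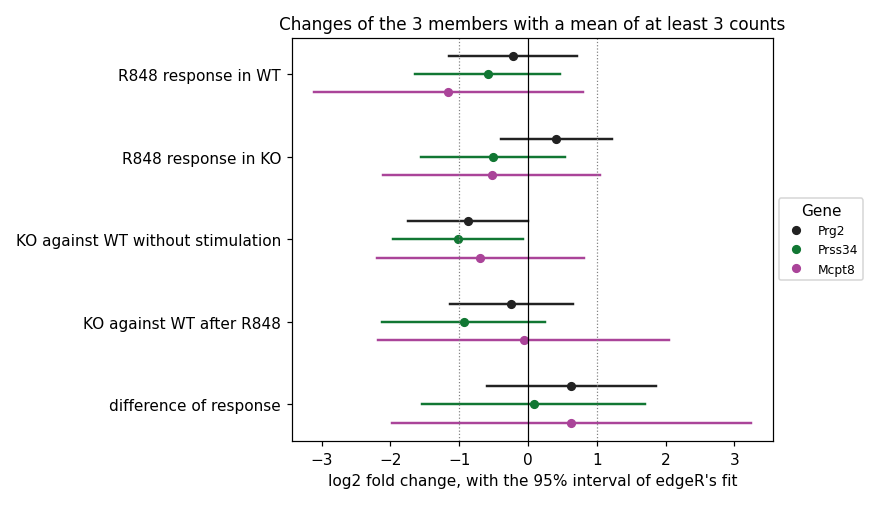
Log2 fold changes (horizontal axis) of Prg2, Prss34 and Mcpt8 in 5 comparisons (vertical axis), with points for the estimates of edgeR's fit and lines for their 95% intervals; dotted lines mark a 2-fold change. Only the intervals of Prg2 and Prss34 in KO against WT without stimulation leave out 0, and neither passed the adjusted threshold.

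Split by cell type, the 5 eosinophil genes pooled to 23.3 CPM (15.5 to 33.6) in unstimulated WT, 18.8 CPM (12.02 to 27.9) in WT after R848, 18.1 CPM (12.5 to 25.5) in unstimulated KO and 16.0 CPM (11.3 to 22.1) in KO after R848. The 5 basophil and mast cell genes pooled to 29.1 CPM (20.3 to 40.4), 13.3 CPM (7.74 to 21.3), 17.0 CPM (11.6 to 24.2) and 9.52 CPM (5.96 to 14.4) in the same order. These levels are on library totals. With TMM factors, the means in the same order were 22.5, 22.4, 15.2 and 16.7 CPM for the eosinophil genes. For the basophil and mast cell genes they were 28.2, 16.4, 13.3 and 9.91 CPM. The eosinophil level in WT was thus about the same with and without R848 on the TMM scale. The eosinophil intervals overlapped between all groups. The basophil and mast cell interval of unstimulated WT lay above that of KO after R848, a pair of groups that no test compared. It overlapped those of the other groups only in part, and these intervals hold counting error alone.

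**Figure D3:**
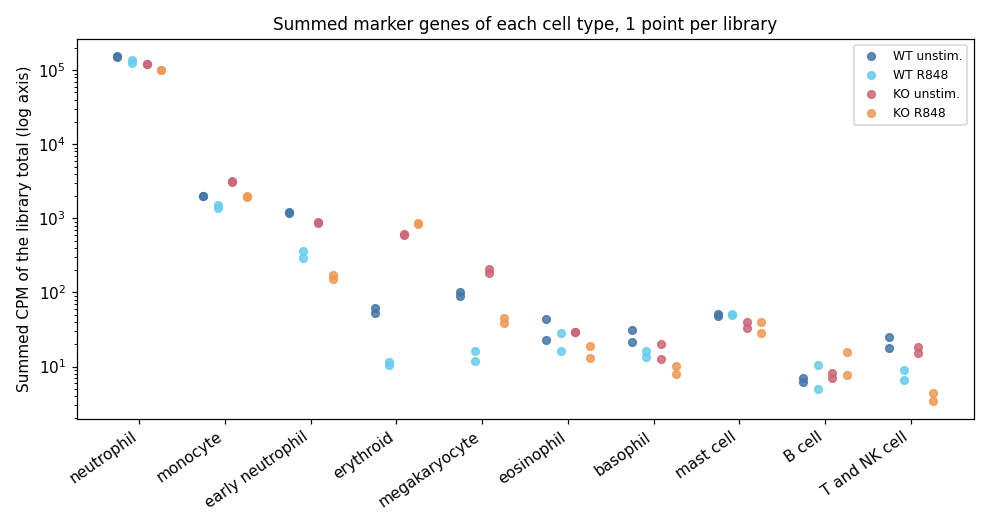
Summed CPM of the library total (vertical axis, logarithmic) for marker lists of 10 cell types (horizontal axis), with 1 point per library coloured by group. The eosinophil and basophil lists lie between 7.94 and 43.7 CPM, under the neutrophil list at 100359 CPM and above, and the erythroid list separates the genotypes.

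Further markers of the same cells were taken from lists of the eosinophil, basophil and mast cell lineages. Siglecf, a surface lectin of eosinophils, had 8 and 4 reads in unstimulated WT, 3 and 3 in WT after R848, 4 and 11 in unstimulated KO, and 1 and 0 in KO after R848. It fell after R848 in KO (log2 fold change -3.50, SE 1.01, adjusted p = 0.00274 in edgeR's quasi-likelihood test), and the pooled ratio of unstimulated KO to KO after R848 was 19.1 with a counting interval of 2.93 to 803. Without replicate 2 of unstimulated KO this fall had a value of -2.93 and was not called, and without replicate 1 of KO after R848, which held the 1 read of that group, it was -5.51. After R848 it was also lower in KO than in WT (-3.28, SE 1.22, adjusted p = 0.0523), a call that was lost with DESeq2, with thinned counts and without either WT library or replicate 2 of KO after R848 (-5.26 to -2.57 over the libraries left out). The difference between the responses did not pass (-2.73, adjusted p = 0.361). Siglecf was the only called gene of 6 tested in the eosinophil list. Prg3, a homologue of Prg2, had 9 reads in all. None of the 5 tested basophil genes was called by edgeR in any of the 5 comparisons, and Cd200r3, a basophil receptor, had 4 reads in all. Of all genes with a mean of under 10 reads, 9.17% were called in the R848 response in WT, 14.1% in that in KO, 7.47% and 5.56% between the genotypes without and after R848, and 0.412% in the difference, so these counts do not set the lists apart.

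Hdc, the histidine decarboxylase that makes histamine in basophils and mast cells and that other myeloid cells also express, had far more reads than any of the 10 genes. Its changes were not tested against theirs. It had 494 and 439 reads in unstimulated WT, 945 and 1035 in WT after R848, 552 and 881 in unstimulated KO, and 836 and 740 in KO after R848. Per kilobase of exon it stood at 374 CPM, far above Prss34 at 8.06 CPM. Hdc rose after R848 in WT (log2 fold change 1.30, SE 0.08, adjusted p = 9.42e-55 in edgeR's quasi-likelihood test) from 761 ± 4.08 to 1879 ± 66.1 CPM (SD, n = 2), and the change was 0.997, just under 2-fold, with library size alone. In KO it went from 632 ± 10.7 to 711 ± 44.3 CPM (0.17, SE 0.08), which was under the 2-fold threshold and became -0.21 with scaling by library size alone. The responses differed by -1.13 (SE 0.11, adjusted p = 7.40e-20), and after R848 the level was lower in KO than in WT (log2 fold change -1.40, SE 0.08, adjusted p = 1.26e-68).

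Of the 6 genes of the shared basophil and mast cell list, Hdc was the only one called in the R848 response of WT, between the genotypes after R848 and in the difference, and none was called in the R848 response of KO. Of all genes, 18%, 17.3%, 4.71% and 16.9% were called in these 4 comparisons, and 23.9% in KO against WT without stimulation. Without stimulation, Il1rl1, the interleukin-33 receptor, was higher in KO (2 and 4 reads in WT, 10 and 22 in KO, log2 fold change 1.50, SE 0.59, adjusted p = 0.0557 by edgeR), and was named after its values were seen. Hdc was lower there (-0.27, adjusted p = 0.0119), but had a value of 0.020 with library size alone, and the call was also lost with DESeq2, without replicate 1 of unstimulated KO and without any of the 4 R848 libraries (-0.28 to -0.12 over the libraries left out). The call of Il1rl1 was lost with DESeq2, with thinned counts and without replicate 1 of unstimulated WT or replicate 2 of unstimulated KO (1.02 to 2.14). Kit, the stem cell factor receptor, had 27 and 25, 13 and 14, 26 and 28, and 16 and 10 reads. By edgeR it fell after R848 in KO (-1.02, SE 0.34, adjusted p = 0.0122) and was lower in KO without stimulation (-0.82, adjusted p = 0.0294) and after R848 (-1.11, adjusted p = 0.0462), and DESeq2 called none of these. Each call was also lost without 1 of several libraries, over which the values were -1.51 to -0.79, -1.04 to -0.52 and -1.57 to -0.94. The 4 early progenitor genes, Cd34, Flt3, Meis1 and Myb, summed to 58.7 to 71.8 CPM in unstimulated WT, 22.4 to 34.4 CPM in WT after R848, 55.8 to 56.2 CPM in unstimulated KO and 18.5 to 25.5 CPM in KO after R848, and their part in the Kit values was not tested. Mitf, a transcription factor of mast cells, rose in both genotypes, from 4 and 4 to 18 and 19 reads in WT (2.40, SE 0.50) and from 3 and 9 to 31 and 22 in KO (2.14, SE 0.42), with adjusted p of 1.48e-05 and 2.28e-06 by edgeR.

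The receptors of IgE and interleukin-5 signal through adaptors and kinases that neutrophils use as well, and 16 of these genes were tested. After R848 in WT, 3 were called higher and 0 lower (7.17% and 10.8% of all genes), with a median log2 fold change of 0.23 against -0.17 over all genes, and in KO 4 higher and 1 lower (8.07% and 8.84% of all genes), with a median of 0.26 against -0.031. Fcer1g, the gamma chain that the IgE receptor shares with Fc gamma receptors, rose from 462 and 367 to 845 and 1062 reads in WT (1.42, SE 0.08, adjusted p = 3.33e-63 by edgeR) and from 407 and 637 to 1900 and 1729 in KO (1.83, SE 0.08, adjusted p = 6.49e-118). The gamma chain thus stood at 1498 CPM per kilobase, where the IgE-binding chain Fcer1a stood at 0.455 CPM on its 3 reads. Jak2, the kinase bound to the shared cytokine receptor chain, rose by 1.36 in WT and 1.74 in KO. Lyn, a Src family kinase, rose by 1.08 in WT (SE 0.09) and changed by 0.86 in KO, under the 2-fold threshold. Syk, which binds the phosphorylated gamma chain, rose by 1.33 in KO (SE 0.08) and changed by 0.87 in WT, under the 2-fold threshold. With library size alone, the rises of Lyn (0.78) and Syk (0.95) were under 2-fold, and so was that of Lyn without replicate 1 of unstimulated WT (0.98). Fyn (1.38) was the fourth called higher in KO, and its change of 2.60 in WT (SE 1.28) was not called. Lat, with 13 reads in all, was the gene called lower in KO. Both Fyn and Lat were named after their values were seen. The call of Fyn was lost with DESeq2, which gave Lat no adjusted p, and both calls were lost without some single libraries (replicate 1 of unstimulated KO or replicate 2 of KO after R848 for Fyn, whose values ran from 0.71 to 2.30 over all libraries left out, and either unstimulated KO library or replicate 1 of KO after R848 for Lat).

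Between the genotypes, 1 of the 16 was higher and 5 were lower in unstimulated KO (9.55% and 14.4% of all genes, median -0.17 against -0.034 over all genes). The higher was Csf2rb2 (0.91), and the lower were Fcer1g (-0.55), Syk (-0.48), Jak2 (-0.55), Plcg2 (-0.28) and Btk (-0.43). The call of Jak2 was lost with DESeq2 and when most single libraries were left out (-0.66 to -0.38), as were those of Btk (-0.51 to -0.28) and Plcg2 (-0.36 to -0.14), and Plcg2 had a value of 0.0034 with library size alone. With library size alone, the calls of Lyn and Inpp5d after R848 were lost too. After R848, Lyn (-0.41) and Inpp5d (-0.34) were lower and 0 were higher (7.81% and 9.46% of all genes), with a median of 0.11 against 0.083. Csf2rb2, Plcg2, Btk and Inpp5d were named after their values were seen.

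Of 12 regulators of these lineages, which were transcriptional regulators and Trib1, 3 were called higher and 4 lower after R848 in WT, against 7.17% and 10.8% of all genes (median -0.22 against -0.17 over all genes, or -0.11 without Gata1, which was at 0 in WT after R848). In KO, 3 were called higher and 1 lower, against 8.07% and 8.84% (0.12 against -0.031, or 0.38 without Gata2, which was at 0 in KO after R848). Between the genotypes, 3 were higher and 3 lower in unstimulated KO, against 9.55% and 14.4% (-0.33 against -0.034), and 2 higher and 1 lower after R848, against 9.46% and 7.81% (-0.094 against 0.083). Trib1, the pseudokinase that controls C/EBP proteins and eosinophil identity, had 57 and 50 reads in unstimulated WT, 234 and 226 in WT after R848, 64 and 115 in unstimulated KO, and 160 and 165 in KO after R848. It rose in WT by 2.32 on the log2 scale (SE 0.15, adjusted p = 1.15e-52 by edgeR) and changed by 0.89 in KO (SE 0.14), under the 2-fold threshold, and the responses differed by -1.43 (SE 0.22, adjusted p = 2.55e-08). In the difference of the responses, 2 of the 12 were called higher in KO, Gata1 and Id2, and 1 lower, Trib1, against 3.45% and 1.26% of all genes. Cebpe, a factor of granule formation in neutrophils and eosinophils, fell in WT by 1.48 on the log2 scale (SE 0.16), changed by -0.90 in KO, and was lower in unstimulated KO than in WT (-0.88, SE 0.13). The early neutrophil list summed to 1181 to 1234 CPM in unstimulated WT and 290 to 357 CPM in WT after R848. In KO its sums were 877 to 884 CPM without stimulation and 153 to 173 CPM after R848. The part of such cells in the Cebpe values was not tested. Spi1, the gene of PU.1, rose in KO by 1.01 (SE 0.08) and changed by 0.71 in WT, and its rise was under 2-fold with DESeq2 (0.92), with both other scalings, with the filterByExpr filter and without any of 5 libraries (down to 0.82). Cebpa, a factor of early granulocytes, rose in both genotypes (1.06 in WT and 1.33 in KO), but its WT rise was under 2-fold without replicate 2 of unstimulated WT (0.96) or of WT after R848 (0.81), and both rises were with library size alone (0.75 and 0.96). Irf8, a factor of monocytes that was called lower after R848 in both (-1.40 and -2.03), was higher in unstimulated KO than in WT (0.84). The WT response of Irf8 was not called with DESeq2 or without replicate 1 of unstimulated WT or replicate 2 of WT after R848 (-1.81 to -0.73), and its difference between the genotypes was not called with DESeq2 or without replicate 2 of unstimulated WT (0.42 to 1.50). Runx1 fell in WT (-1.40) and changed by -0.77 in KO, under the 2-fold threshold. Id2 was lower in unstimulated KO (-1.04), whereas its response was higher in KO than in WT (difference 0.92, SE 0.22). The Id2 difference was not called with DESeq2 or without replicate 2 of unstimulated WT, replicate 1 of WT after R848 or replicate 1 of KO after R848 (0.43 to 1.12 over the libraries left out). Cebpa, Irf8, Runx1 and Id2 were named after their values were seen.

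Gata1, a factor of eosinophils, basophils and mast cells that is best known for erythroid and megakaryocytic cells, was named after its values were seen. It had 4 and 4 reads in unstimulated WT, 0 and 0 in WT after R848, 40 and 62 in unstimulated KO, and 44 and 42 in KO after R848. It was higher in unstimulated KO than in WT (log2 fold change 2.76, SE 0.41, adjusted p = 8.67e-10 by edgeR). After R848 it was at least 15.9-fold higher in KO, taking 3 reads over both WT libraries as the floor. Its partner Zfpm1, or FOG-1, had 5 and 3, 1 and 3, 53 and 86, and 95 and 82 reads and was higher in KO by 3.21 without stimulation (SE 0.38) and 4.35 after R848 (SE 0.42). The erythroid list, with sums of 593 to 862 CPM in KO and 10.5 to 62.4 CPM in WT, was high in the same libraries; the part of erythroid cells in the Gata1 and Zfpm1 values was not tested. By the study's methods, nearly all of the magnetically isolated cells carried CD11b and Ly6G.

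**Figure D4:**
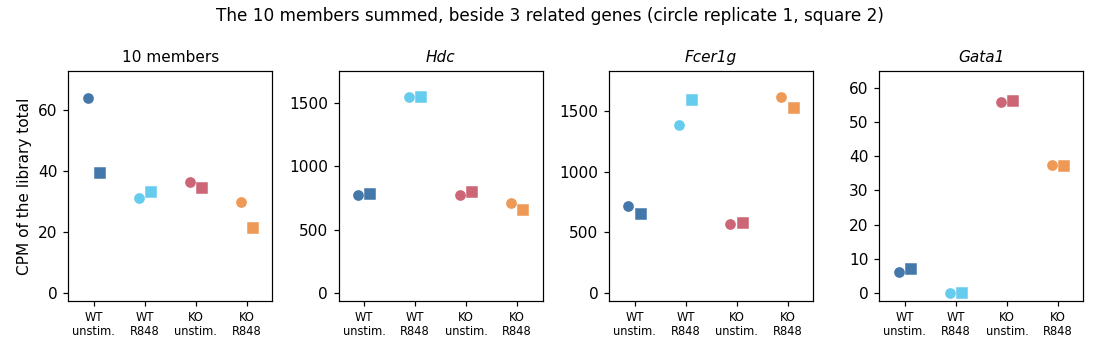
CPM of the library total (vertical axes) for the sum of the 10 genes and for Hdc, Fcer1g and Gata1 in each group (horizontal axes), with a circle for replicate 1 and a square for replicate 2. The sum of the 10 genes is highest in unstimulated WT on this scale at 39.1 and 64.0 CPM, though with TMM factors replicate 2 of that group falls below both WT libraries after R848, Hdc is highest in WT after R848, Fcer1g is higher after R848 in both genotypes, and Gata1 is higher in KO.

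The genes whose log2 CPM over the 8 libraries was most like that of Prg2, among 6911 genes with a mean of at least 10 reads, were Snx12 (Pearson's r = 0.935), Map3k14 (0.905), Soat1 (0.902), Ccdc97 (0.896) and Tmem185b (0.892). The r of Prg2 with Prss34 was 0.384. These are descriptions over 8 libraries, which share their totals and scaling factors with every gene, and at 5 to 18 reads per library the counting error of Prg2 is large.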

How the data were processed

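RNA was prepared with a TruSeq kit and sequenced paired-end on a MiSeq. According to the submitters' processing notes and the study's methods, the authors checked reads with FastQC 0.11.7, trimmed them with cutadapt 1.16, removed low-quality reads, mapped them to mm10 with STAR 2.5.3a and counted them with HTSeq 0.6.1p1. The deposited values are raw counts per gene symbol, with no normalization. Which annotation was used and whether counting used strand is not given in the sources used here, so reads of antisense or overlapping genes cannot be told apart; this touches Ear1, Ear2, Mcpt8 and Cpa3. The summary lines of HTSeq stayed out of the library totals and tests; 87.0% to 89.4% of the reads in the table were on genes.

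Groups came from the sample labels. Genes with at least 1 count in at least 2 of 8 libraries (12254) were fitted in R 4.3.3 with edgeR 4.0.16 (limma 3.58.1): TMM factors, 1 mean per group and the robust quasi-likelihood test, for the R848 response in WT and KO, KO against WT without and after R848, and the difference of the responses. The standard error was taken as the size of the log2 fold change over the root of F. The alternatives were DESeq2 1.42.0, relative log expression factors, library size alone, edgeR's filterByExpr, no filter, a block for the replicate number, counts thinned to 562446 per library, an adjusted p below 0.05, and each library left out; for genes outside the 10 they were added after the data were seen. The fit was tested on simulated data, where the first pass criterion, on the number of changed genes recovered, was missed by a small margin and was then replaced by others that the same fit met.

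The 10 genes and the lists were chosen with earlier results of these data known. Other genes were named by a rule: those of each list that passed a test with a mean of at least 10 counts, up to 4 per list, or else the 2 most abundant. The mean of 3 counts for printing fold changes, the promoter motifs, the 50-base windows and the printed sequences were chosen after the counts were seen. Positions and lengths came from GENCODE (GRCm38, which is mm10). Intervals on pooled counts are exact Poisson at 95% on the library totals and, like the floor of 3 counts, cover counting error only.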

Additional observations from a re-analysis of the deposited data

Results flagged for a closer look

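Among the 6 tested genes of the shared basophil and mast cell list, the 16 of receptor signalling and the 12 lineage regulators, which have Gata2 in common between the first and the last, 6 genes responded differently to R848 in the 2 genotypes by the interaction term of edgeR's quasi-likelihood test, given as the log2 fold change in KO minus that in WT. In the eosinophil, Ear family, basophil and mast cell lists, 0 genes were called. Of all genes tested, 4.71% were called in this comparison, 3.45% higher and 1.26% lower in KO. Of genes with a mean of under 10 reads, 0.412% were called. All 6 differing genes had a mean of at least 10 reads, and among such genes the share called is above 4.71%. Hdc had a difference of -1.13 (SE 0.11, adjusted p = 7.40e-20). Trib1 had a difference of -1.43 (SE 0.22, adjusted p = 2.55e-08). Fcer1g had a difference of 0.41 (SE 0.11, adjusted p = 0.0171) and Syk of 0.46 (SE 0.12, adjusted p = 0.00546). Id2 had a difference of 0.92 (SE 0.22, adjusted p = 0.00254). Gata1 had a fitted difference of 5.28 (SE 1.82, adjusted p = 0.0849), which depends on the prior count because both WT libraries after R848 held 0 reads. The calls of Hdc and Trib1 held under every alternative run, DESeq2 included. Those of Fcer1g and Syk were lost with DESeq2 (0.26 and 0.30), with relative log expression factors and when most single libraries were left out (0.077 to 0.49 for Fcer1g and 0.15 to 0.52 for Syk). That of Id2 was lost with DESeq2 (0.77) and without replicate 2 of unstimulated WT, replicate 1 of WT after R848 or replicate 1 of KO after R848 (0.43 to 1.12 over all libraries left out), and that of Gata1 with every library left out and with either other scaling; DESeq2 gave Gata1 no adjusted p there. None of the 8 tested members of the gene group met this test. The check for an outlying value needs at least 4 samples in a group and was not run on groups of 2.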

How the results depend on the processing

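The number of the 10 genes called was 0 in all 5 comparisons under relative log expression factors, library size alone, no filter, an adjusted p below 0.05 and the replicate block. DESeq2 called 0 too, but gave an adjusted p to only 3 of the 8 tested genes in each R848 response, 2 in each comparison of the genotypes and 0 in the difference, and the filterByExpr filter kept only Prg2, which was not called. With counts thinned to the smallest library, 1 gene was called in the R848 response in KO, Mcpt8, whose 2 thinned KO libraries after R848 held 0 reads. Leaving out single libraries gave 0 to 2 called in KO against WT without stimulation, with 2 only without replicate 2 of unstimulated WT, and 0 in the other comparisons. Libraries with the same replicate number did not deviate together (correlations of deviations of -0.019 to 0.020 over 6911 genes). The spread between duplicates was largely counting error, with a chi-square over degrees of freedom of 1.055 to 1.668. These correlations therefore cannot show whether the samples were paired. The replicate block left 0 genes called.

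Several fold changes crossed 0, and the cause was not tested. Of these, Hdc and Plcg2 in KO against WT without stimulation had been called, and the others had not. With thinned counts, the log2 fold change was 0.030 for Prg2 in KO against WT after R848, and -2.95 for the Mcpt8 difference, which rests on the 0 reads above. With library size alone, it was 0.14 for Mcpt8 in KO against WT after R848, -0.21 for Hdc in the KO response and, in KO against WT without stimulation, 0.020 for Hdc and 0.0034 for Plcg2. It was -0.10 for Csf2rb in the KO response. The Prss34 difference was -0.074 with relative log expression factors. Over the libraries left out, the WT response ranged from -0.77 to 0.41 for Prg2 and -1.02 to 0.13 for Prss34. The KO response ranged from -0.028 to 0.63 for Prg2, -1.19 to 0.25 for Mcpt8 and -0.038 to 0.19 for Hdc. KO against WT after R848 ranged from -0.79 to 0.32 for Prg2 and -0.69 to 0.31 for Mcpt8. The differences ranged from -0.044 to 1.05 for Prg2, -0.12 to 1.39 for Mcpt8 and -0.64 to 0.52 for Prss34.

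Scaling by library size alone moved the median of all genes with at least 10 reads from -0.074 to -0.38 in the WT response, from 0.077 to -0.30 in the KO response, from -0.16 to 0.12 in KO against WT without stimulation and from -0.0019 to 0.21 after R848. At 3 to 30 reads per gene and group for Prg2, Prss34 and Mcpt8, 2-fold changes lie within the intervals of most comparisons, so a count of 0 called says little about changes of that size.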
